A study of Mus musculus with 6 samples.

Results

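The ligands and receptors of vascular endothelial growth factor (VEGF) and angiopoietin signalling were followed in mouse heart mRNA. They are 10 genes taken from a list by name: the VEGF ligands Vegfa, Vegfb and Vegfc, their receptors Flt1, Kdr and Flt4, the co-receptor Nrp1, the angiopoietin ligand Angpt1 and the TIE receptors Tek and Tie1. They were 10 of 36564 genes with a value, and each passed the filter on low values, a mean of at least 1 FPKM (fragments per kilobase of transcript, scaled to the sequencing depth). The hearts came from mice aged 32 weeks. There were 3 libraries labelled ApoE-/- Timp3-/- (numbered 4, 5 and 6), here called double mutants, and 3 from ApoE-/- littermates (numbered 1, 2 and 3), the controls. By their labels, all mice lacked Apoe, the apolipoprotein whose loss raises plasma cholesterol, so the only labelled difference was Timp3. The labels do not describe the Timp3 allele, the sex of the mice or which heart chambers were taken.

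VEGF-A binds the tyrosine kinase receptor KDR (VEGFR2), which carries most of its signal for endothelial growth, permeability and survival. FLT1 (VEGFR1) binds VEGF-A and VEGF-B tightly but signals weakly, and its soluble form acts as a decoy. VEGF-C acts on FLT4 (VEGFR3), mainly in lymphatic endothelium. Angiopoietin-1, made by perivascular and other cells around the vessel, activates TEK (TIE2) on endothelium and keeps vessels quiet, and TIE1 modulates that signal. TIMP3, an inhibitor of metalloproteinases bound to the matrix, is also known to bind KDR and to block its activation by VEGF-A. In heart muscle the cardiomyocytes are a main source of VEGF-A and VEGF-B, and the endothelium carries the receptors.

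Library depth, judged from read coverage times transcript length, was 683 to 910 aligned megabases in the double mutants and 654 to 1339 in the controls. Timp3, the targeted gene, had 20.2, 28.0 and 29.6 FPKM in the double mutants, against 52.1, 38.0 and 36.3 FPKM in the controls. Every double mutant was below every control, but Timp3 RNA was present in all 3 (log2 difference -0.61 ± 0.19 SE, adjusted p = 0.287 by limma, exact permutation p = 0.1, the smallest that 3 against 3 libraries allow). The labels do not say whether this allele leaves a transcript, so the value does not settle the genotype. The libraries also stood apart in tissue content. Red blood cell genes summed to 16070 scaled FPKM in library 4, against 151 to 1643 in the other 5. Atrial cardiomyocyte markers were on average 1.72 and 2.34 log2 units above their mean in libraries 5 and 6, and 1.60 below it in library 4; they were 1.71 above it in control library 1, and 1.83 and 2.34 below it in control libraries 2 and 3. Adipocyte markers summed to 138 scaled FPKM in control library 1 and to 1.05 to 28.2 in the other 5. The part of these contents in the results below was not tested. Values without each library and within libraries grouped by the mean of the atrial markers stand beside the results they touch. That grouping is rough: Sln, Myl7, Myl4 and Dkk3 were higher in libraries 5, 6 and 1 than in the rest, but 2 markers differed. Bmp10 had 10.1 and 32.5 FPKM in libraries 5 and 6 and 0.477 in control library 1. Nppa had 802 FPKM in control library 2, against 142 in library 4 and 104 in control library 3.

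The genes spanned a wide range of levels. Vegfb was the strongest with a mean of 68.3 FPKM over the 6 libraries, followed by Vegfa at 21.3, Nrp1 at 16.6, Kdr at 14.4, Flt1 at 11.6, Tie1 at 11.1, Angpt1 at 8.59, Tek at 6.92, Flt4 at 2.36 and Vegfc at 2.13. FPKM is per length, but these sums also count assembled fragments, each by its own length, beside whole transcripts. Levels of genes with such fragments are therefore less certain. For Vegfa, reference transcripts alone held 10.9, 5.49 and 15.9 FPKM in the double mutants, against 11.2, 16.5 and 19.9 FPKM in the controls. Vegfb lay above Vegfa, Nrp1 above Kdr, and Tek above Flt4 in 6 of 6 libraries. By these sums, fragments included, Vegfa lay above Nrp1 and Flt4 above Vegfc in 5 of 6. The order from Kdr to Flt1, from Flt1 to Tie1, from Tie1 to Angpt1 and from Angpt1 to Tek held in 4 of 6 libraries each, so these neighbours did not separate beyond their spread.

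**Figure D1:**
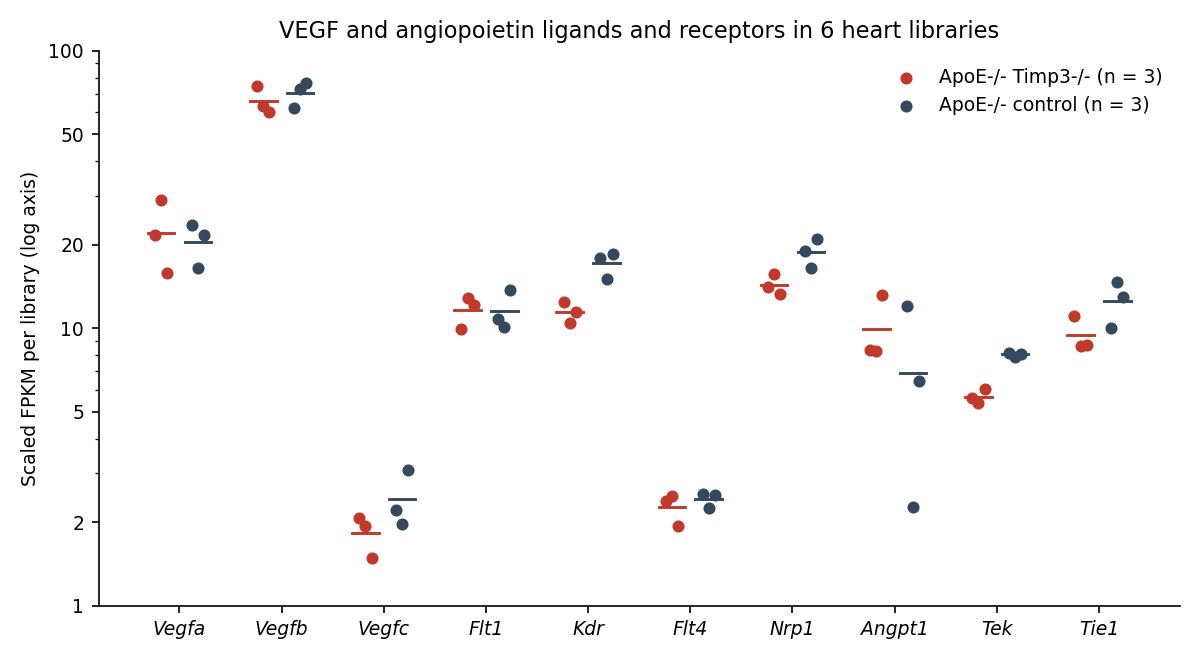
Level of each of the 10 genes in each library, as scaled FPKM on a log axis; points are libraries, bars are means, with ApoE-/- Timp3-/- hearts left of ApoE-/- controls (n = 3 each). For Kdr, Nrp1 and Tek the 3 double mutants lie below all 3 controls, while Vegfa, Vegfb, Flt1, Flt4 and Angpt1 overlap widely.

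The comparison asked how the loss of Timp3 on the ApoE-/- background relates to the level of each gene. None of the 10 genes passed an adjusted p of 0.05 in the limma test over 11386 genes, and of all genes 0.0439% (5) passed. Of their 14 reference transcripts with a mean of at least 1 FPKM, none passed over 12456 transcripts, where 0.128% did, and 1, that of Kdr, had an unadjusted p under 0.05, against 8.25% of all transcripts. The receptors Kdr and Tek and the co-receptor Nrp1 were lower in the double mutants at an unadjusted p under 0.05, 3 of 10 genes, and these 3 were also the genes whose libraries did not overlap between genotypes. None was higher at that level. Over all genes tested, 12.2% had an unadjusted p under 0.05 (5.23% lower and 6.96% higher), and 19.2% did not overlap (9.2% lower and 9.99% higher). With libraries scaled to an equal total, 13.8% of all genes were lower and 2.91% higher at that p. The log2 difference was below 0 for 7 of the 10 genes, with a median of -0.18, against 51.2% of all genes and a median of -0.0061. In whole heart, fewer endothelial cells and less RNA per endothelial cell cannot be told apart.

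**Figure D2:**
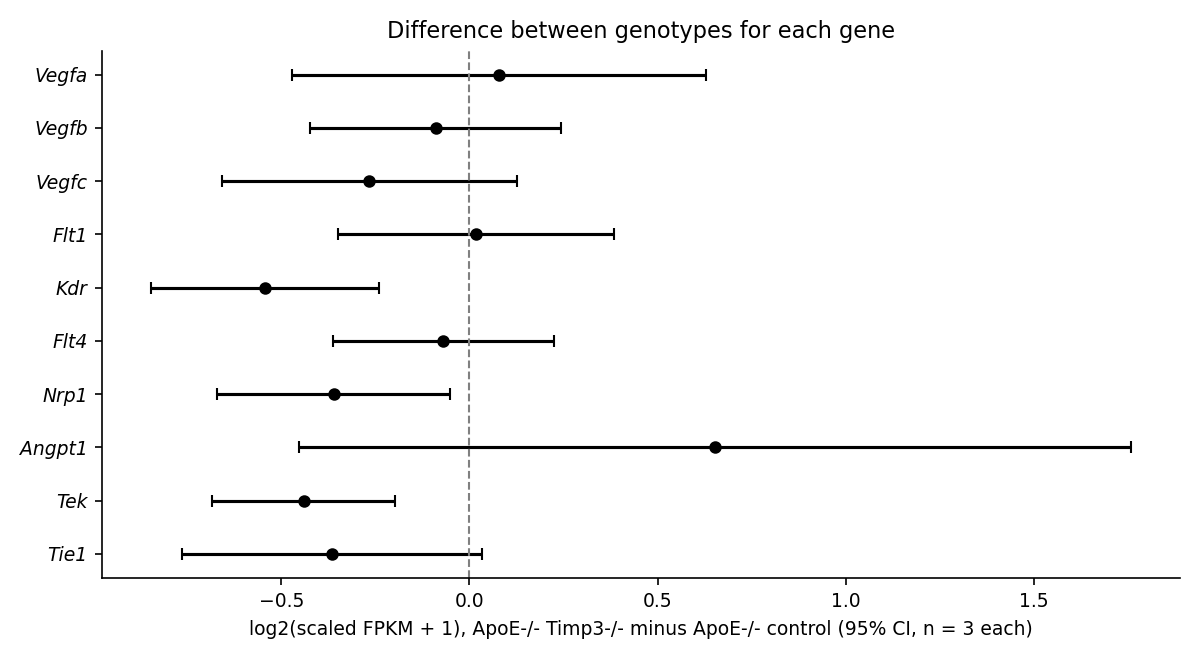
Difference in log2(scaled FPKM + 1) between ApoE-/- Timp3-/- hearts and ApoE-/- controls for each gene; points are the limma estimates and bars their 95% confidence intervals (n = 3 each). The intervals of Kdr, Nrp1 and Tek lie below 0 before adjustment over all genes, and that of Angpt1 is the widest, from -0.45 to 1.76.

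Vegfa, on chromosome 17 (chr17:46153942-46169326, minus strand, NCBIM37), had 22.2, 25.9 and 15.9 FPKM in the double mutants, against 27.5, 16.5 and 19.9 FPKM in the controls. The groups overlapped, with library 1 highest among the controls and library 5 among the double mutants. The log2 difference was 0.08 ± 0.23 (SE, 95% confidence interval -0.47 to 0.63, adjusted p = 0.929 by limma). Its sign was not stable: when each transcript counted by its bases, so that short assembled fragments weighed less, the difference was -0.21 (adjusted p = 0.669), and it was -0.13 without library 5 and -0.07 without control library 2. Assembled fragments held 50.9% and 78.8% of the Vegfa FPKM in libraries 4 and 5 and 59.1% in control library 1, and none in libraries 6, 2 and 3.

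Vegfa splicing sets how tightly the protein holds to heparan sulphate in the matrix, and the exon of 72 bases shown in capitals (chr17:46159226-46159297, NCBIM37) encodes part of the basic stretch that does so. Its letters and its flanks, read from the reference transcript on the minus strand, show what the included and the skipped junction look like.
Vegfa with the exon: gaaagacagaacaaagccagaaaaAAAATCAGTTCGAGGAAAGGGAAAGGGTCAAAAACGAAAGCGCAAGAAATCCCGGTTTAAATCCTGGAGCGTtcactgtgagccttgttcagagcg
Vegfa without the exon: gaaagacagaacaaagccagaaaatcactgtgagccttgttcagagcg
Transcripts with the exon summed to 5.50, 9.54 and 4.73 FPKM in the double mutants and to 9.46, 6.86 and 11.3 FPKM in the controls. Transcripts that skip it summed to 8.98, 5.49 and 11.2 FPKM in the double mutants and to 18.0, 9.65 and 8.54 FPKM in the controls. By this count, transcripts with the exon made up 38.0%, 63.5% and 29.6% of both kinds in the double mutants. They made up 34.4%, 41.6% and 57.0% in the controls, so the ranges overlapped. In library 5 and control library 1, all FPKM with the exon came from 1 assembled fragment each (9.54 and 9.46 FPKM). These fragments begin inside the intron before the exon and do not hold the included junction. In those libraries the share therefore does not measure splicing. The reference transcript with the skip, ENSMUST00000074629, differed by -0.37 ± 0.26 (log2, SE; adjusted p = 0.770 by limma over 12456 transcripts). ENSMUST00000164714, which includes the exon, had no FPKM in libraries 4, 5 and 1, where assembled fragments or other reference transcripts held the Vegfa FPKM.

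Vegfb (chr19:7056963-7062141, minus strand), a ligand of FLT1 that is abundant in heart and skeletal muscle, had 76.5, 56.7 and 60.9 FPKM in the double mutants, against 72.3, 73.3 and 70.3 FPKM in the controls. Library 4 was the highest of all 6 in these deposited values, but control library 3 was the highest after scaling. The groups overlapped (log2 difference -0.09 ± 0.14 SE, interval -0.42 to 0.24, adjusted p = 0.842 by limma). Its short form keeps a basic, heparin-binding tail, and its long form, with 101 more bases of coding sequence (chr19:7059986-7060086, capitals), has another tail that leaves the protein freely diffusible.
Vegfb long form: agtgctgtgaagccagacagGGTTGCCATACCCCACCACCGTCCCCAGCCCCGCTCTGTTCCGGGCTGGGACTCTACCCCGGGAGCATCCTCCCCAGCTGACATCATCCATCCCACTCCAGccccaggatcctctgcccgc
Vegfb short form: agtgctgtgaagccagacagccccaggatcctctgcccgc
The long form ENSMUST00000025914 had 32.9, 26.5 and 25.5 FPKM in the double mutants, against 30.2, 31.0 and 21.5 FPKM in the controls. The short form ENSMUST00000130048 had 43.6, 30.1 and 35.4 FPKM in the double mutants, against 42.1, 42.3 and 31.7 FPKM in the controls. The short form was the stronger in every library, and the long form made up 43.9% ± 2.62 of both in the double mutants and 41.5% ± 1.03 in the controls (SD, n = 3 each). Neither transcript passed (adjusted p = 0.852 for the long and 0.987 for the short form by limma).

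Vegfc (chr8:55162886-55271808, plus strand), the lymphangiogenic ligand, had 2.11, 1.74 and 1.5 FPKM in the double mutants, against 2.58, 1.98 and 2.84 FPKM in the controls. The lowest control lay between the double mutants, and the log2 difference was -0.27 ± 0.17 (SE, adjusted p = 0.593 by limma). Its confidence bounds in the deposited files were wide at this level, from 0.65 to 1.42 around 1.04 FPKM for its reference transcript in library 4. Assembled transcripts held 50.9% of the Vegfc FPKM in library 4, and 24.2% and 55.2% in control libraries 1 and 3. With reference transcripts alone the log2 difference was -0.13 (adjusted p = 0.869 by limma).

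Kdr (chr5:76328852-76374483, minus strand), the main signalling receptor of VEGF-A, had 12.7, 9.32 and 11.5 FPKM in the double mutants, against 20.8, 15.2 and 17.0 FPKM in the controls. All 3 double mutants were below all 3 controls, in the deposited and in the scaled values. Scaled levels averaged 11.4 ± 1.03 FPKM in the double mutants and 17.1 ± 1.81 FPKM in the controls (SD, n = 3 each). The log2 difference was -0.54 ± 0.13 (SE, interval -0.85 to -0.24), with an unadjusted p of 0.00372 and an adjusted p of 0.240 by limma. All of its FPKM sat on the 30-exon reference transcript ENSMUST00000113516, so no assembled fragment touched the sum. The authors' bounds for that transcript reached 13.4 FPKM at most in the double mutants (library 4) and began at 14.6 FPKM in the lowest control (library 2). These bounds are given for each library alone, on unscaled FPKM, and do not measure the spread between hearts. The log2 difference of Kdr kept its sign under all 16 other settings, from -0.72 to -0.48. It passed in 1 of them, with libraries weighted by their spread (-0.65, adjusted p = 0.0492 by limma).

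Flt1 (chr5:148373180-148537587, minus strand), the second receptor of VEGF-A and the receptor of VEGF-B, had 10.2, 11.5 and 12.3 FPKM in the double mutants, against 12.6, 10.2 and 12.7 FPKM in the controls. The groups overlapped throughout and the log2 difference was 0.02 ± 0.16 (SE, interval -0.35 to 0.38, adjusted p = 0.977 by limma). With libraries scaled to an equal total, which moved the median of all genes to -0.16, the Flt1 difference was -0.16. Its RNA divides into 2 forms of unlike function. The 30-exon transcript ENSMUST00000031653 encodes the membrane receptor; ENSMUST00000110529 has 13 exons and reads on into the intron, so that the protein ends before the membrane span and is secreted. The forms share the letters in lower case, and the capitals show the first 95 bases that differ (chr5:148450706-148450800 for the soluble form, up to and including its stop codon, and chr5:148446005-148446099 for the membrane form).
Flt1 soluble form: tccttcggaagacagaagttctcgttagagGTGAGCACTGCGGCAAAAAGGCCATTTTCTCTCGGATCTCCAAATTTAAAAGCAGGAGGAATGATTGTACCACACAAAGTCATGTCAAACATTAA
Flt1 membrane form: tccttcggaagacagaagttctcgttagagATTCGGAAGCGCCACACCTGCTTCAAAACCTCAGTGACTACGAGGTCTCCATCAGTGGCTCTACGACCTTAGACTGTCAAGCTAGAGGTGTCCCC
The soluble form had 3.69, 4.54 and 4.52 FPKM in the double mutants, against 3.57, 3.02 and 4.20 FPKM in the controls. The membrane form had 6.50, 7.0 and 7.76 FPKM in the double mutants, against 9.02, 7.14 and 8.46 FPKM in the controls. The soluble share of the 2 forms was 36.2%, 39.3% and 36.8% in the double mutants and 28.4%, 29.7% and 33.2% in the controls. Every double mutant was above every control, by 7.06 percentage points on average. This share was singled out after its values were seen and is given without a test. A like share of the 2 strongest reference transcripts failed to overlap in 10.7% of 858 genes. Taken singly, neither form passed (soluble 0.25 ± 0.20 log2, adjusted p = 0.787; membrane -0.12 ± 0.15, adjusted p = 0.846, both by limma with SE).

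**Figure D3:**
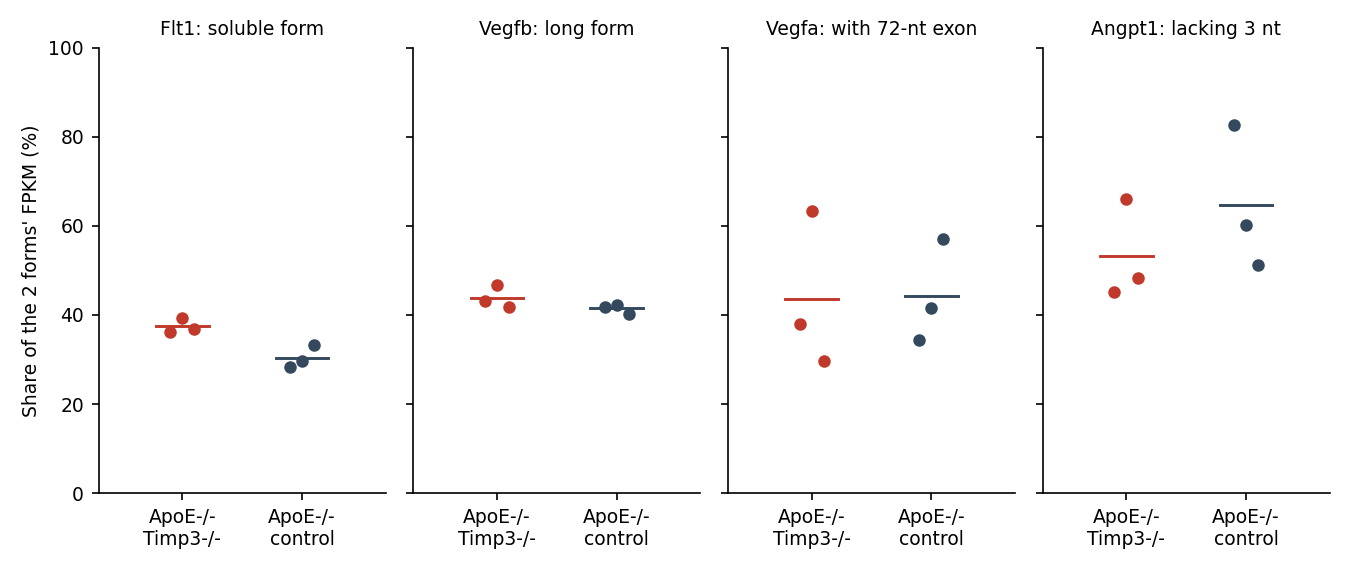
Share of the FPKM of 2 transcript forms held by the named form, in percent, for Flt1, Vegfb, Vegfa and Angpt1; points are libraries and bars means, with ApoE-/- Timp3-/- hearts left of ApoE-/- controls (n = 3 each). The soluble Flt1 share lies between 36.2% and 39.3% in the double mutants and between 28.4% and 33.2% in the controls, and the other 3 shares overlap.

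Flt4 (chr11:49422765-49466241, plus strand), the receptor of VEGF-C, had 2.44, 2.23 and 1.96 FPKM in the double mutants, against 2.95, 2.26 and 2.30 FPKM in the controls. The groups overlapped and the log2 difference was -0.07 ± 0.12 (SE, interval -0.36 to 0.23, adjusted p = 0.865 by limma). Assembled transcripts held 76.0% of its FPKM in library 5 and 18.2% in control library 2. With reference transcripts alone the difference was -0.39 (adjusted p = 0.713 by limma). Of 5 lymphatic endothelial markers, 3 passed the filter; the median of their log2 differences was 0.013 and none had an unadjusted p under 0.05. Their summed scaled level was 10.4 to 17.8 FPKM in the double mutants and 9.13 to 21.4 FPKM in the controls. Reln was listed at 0 in library 4, and Mmrn1 in all 3 controls against 1.45, 1.26 and 1.41 FPKM in the double mutants.

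Nrp1 (chr8:130882973-131029362, plus strand), the co-receptor that presents VEGF-A to KDR, had 14.4, 14.0 and 13.4 FPKM in the double mutants, against 22.1, 16.5 and 19.3 FPKM in the controls. The double mutants lay close together and all below the controls. The log2 difference was -0.36 ± 0.13 (SE, interval -0.67 to -0.05), with an unadjusted p of 0.0280 and an adjusted p of 0.356 by limma. This result rests on transcripts assembled in single libraries: the only reference transcript, ENSMUST00000026917, was listed at 0 in control library 1, where 2 assembled transcripts held all 22.1 FPKM. With reference transcripts alone the difference was therefore 0.78 (adjusted p = 0.837). Weighted by length, which keeps the assembled forms, it was -0.34. Nrp2, the related co-receptor that also serves FLT4, had 7.13, 5.75 and 7.05 FPKM in the double mutants, against 11.4, 9.86 and 9.03 FPKM in the controls, and the groups did not overlap (log2 difference -0.47 ± 0.10 SE, unadjusted p = 0.00222, adjusted p = 0.234 by limma).

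Angpt1 (chr15:42256273-42508523, minus strand), the activating ligand of TEK, had the widest confidence interval of the 10 genes. It had 8.53, 7.42 and 13.3 FPKM in the double mutants, against 14.1, 2.27 and 5.93 FPKM in the controls. In these deposited values control library 1 was the highest and control library 2 the lowest, so the double mutants lay inside the range of the controls. After scaling, library 6 (13.2 FPKM) was above control library 1 (12.1 FPKM), and the groups still overlapped. The double mutants differed by 0.65 ± 0.47 (log2, SE, interval -0.45 to 1.76, adjusted p = 0.639 by limma), and it was 0.12 without library 2 and 1.11 without library 1. With the mean of the endothelial markers as a covariate it was -0.45 (adjusted p = 0.561). Every library held an assembled Angpt1 form that lacks 3 bases at the end of an exon (chr15:42327773-42327775, in capitals at the junction), beside the reference form that has them.
Angpt1 junction: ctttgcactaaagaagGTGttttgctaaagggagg
The form without these bases held 45.2%, 66.1% and 48.2% of the Angpt1 FPKM in the double mutants, against 82.7%, 60.1% and 51.3% in the controls, and the groups overlapped. The reference form had 4.68, 2.51 and 6.90 FPKM in the double mutants, against 2.43, 0.906 and 2.89 FPKM in the controls. Its log2 difference was 0.92 ± 0.39 (SE, unadjusted p = 0.0547, adjusted p = 0.611 by limma).

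Tek (chr4:94405980-94541667, plus strand), the receptor of the angiopoietins, had 5.71, 4.83 and 6.10 FPKM in the double mutants, against 9.51, 7.92 and 7.45 FPKM in the controls. All 3 double mutants were below all 3 controls, and after scaling the groups were narrow, at 5.67 ± 0.328 FPKM in the double mutants and 8.04 ± 0.149 FPKM in the controls (SD, n = 3 each). The log2 difference was -0.44 ± 0.10 (SE, interval -0.68 to -0.20), with an unadjusted p of 0.00355 and an adjusted p of 0.238 by limma. It lay between -0.61 and -0.30 under the 16 other settings and passed in none. Neither of its main transcripts passed: ENSMUST00000102798 differed by -0.28 ± 0.31 and ENSMUST00000071168 by -0.32 ± 0.22 (log2, SE; adjusted p = 0.821 and 0.749 by limma). Another transcript, ENSMUST00000073939 with 22 exons, had FPKM in libraries 4 and 2 alone, so that the same gene was divided over different transcripts in different libraries.

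Tie1 (chr4:118143796-118162666, minus strand), the orphan relative of TEK in the same cells, had 11.4, 7.74 and 8.81 FPKM in the double mutants, against 11.7, 14.8 and 12.0 FPKM in the controls. The deposited values did not overlap, by a narrow margin, but after scaling between libraries the groups did. It differed by -0.37 ± 0.17 (log2, SE, interval -0.77 to 0.03), with an unadjusted p of 0.0667 and an adjusted p of 0.450 by limma. Under the 16 other settings it lay between -0.56 and -0.02, the value nearest 0 coming with the mean of the endothelial markers as a covariate.

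Kdr, Nrp1 and Tek were below the controls both among the libraries with a high mean of the atrial markers and among those with a low one. This sign could not have come out otherwise, because for these genes every double mutant lay below every control. The division was made after the data were seen and has too few libraries for a test, so the sizes are given as description. Between libraries 5 and 6 and control library 1, the log2 difference was -0.66 for Kdr, -0.37 for Nrp1 and -0.45 for Tek. Between library 4 and control libraries 2 and 3 it was -0.39 for Kdr, -0.37 for Nrp1 and -0.45 for Tek. Without library 4, which was rich in red blood cell RNA, Kdr differed by -0.60, Nrp1 by -0.35 and Tek by -0.43, and without control library 1, rich in adipocyte RNA, by -0.51, -0.35 and -0.43. Vegfc and Tie1 were likewise below the controls in both kinds of library, and the other 5 genes had opposite signs in them. Flt1, for example, was 0.20 above control library 1 in libraries 5 and 6 and 0.22 below control libraries 2 and 3 in library 4 (log2 difference -0.22).

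The promoters of the 3 receptors with lower values in the double mutants are shown for the core letters of ETS factors, the family of endothelial regulators that includes ERG. They are the 250 bases before each RefSeq start (GRCm38.p6, given 5′ to 3′ on the gene's strand), and the capitals mark every GGAA and, on the other strand, TTCC. Of the 10 genes, 9 were in that table.
Kdr, chr5:75978456-75978705, minus strand: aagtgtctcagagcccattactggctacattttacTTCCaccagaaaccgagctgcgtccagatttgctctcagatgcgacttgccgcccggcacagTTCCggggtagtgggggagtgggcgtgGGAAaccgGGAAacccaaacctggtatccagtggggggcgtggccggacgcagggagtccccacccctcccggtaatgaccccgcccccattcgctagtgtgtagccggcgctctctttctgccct
Tek, chr4:94739039-94739288, plus strand: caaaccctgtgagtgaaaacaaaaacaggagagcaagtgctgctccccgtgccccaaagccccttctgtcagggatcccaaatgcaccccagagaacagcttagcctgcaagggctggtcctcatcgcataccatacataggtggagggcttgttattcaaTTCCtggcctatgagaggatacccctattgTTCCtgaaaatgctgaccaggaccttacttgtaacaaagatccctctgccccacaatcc
Nrp1, chr8:128358823-128359072, plus strand: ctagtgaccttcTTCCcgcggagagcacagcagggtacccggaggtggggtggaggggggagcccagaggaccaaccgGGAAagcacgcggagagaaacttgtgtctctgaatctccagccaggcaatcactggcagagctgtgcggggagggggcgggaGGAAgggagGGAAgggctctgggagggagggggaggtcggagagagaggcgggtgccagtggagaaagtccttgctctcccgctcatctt
Counted on both strands, GGAA occurred 4 times before Kdr, 2 times before Tek and 4 times before Nrp1, and 93.4% of 32851 promoter windows of this length held it, with a median of 3. The longer CCGGAA, which overlaps GGAA, occurred 1 time before Kdr and in 12.0% of all windows. CAGGAA, which overlaps it too, occurred 2 times before Tek and not before Kdr or Nrp1. At least 1 copy stood in 25.7% of all windows and at least 2 in 4.17%. At least 4 GGAA copies stood in 33.4% of all windows and at least 2 in 76.8%, so these GGAA counts are common. The promoters of the other members were not counted. A match describes these letters alone, and a part of ERG in the levels of these receptors was not tested. ERG itself (gene Erg) had 2.61, 2.35 and 3.00 FPKM in the double mutants, against 4.77, 4.35 and 4.53 FPKM in the controls, without overlap (log2 difference -0.55 ± 0.12 SE, unadjusted p = 0.00215, adjusted p = 0.234 by limma).

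Ratios of scaled FPKM + 1 within a library set ligands and receptors side by side. The log2 ratio of Flt1 over Kdr was -0.30, 0.28 and 0.08 in the double mutants, against -0.68, -0.53 and -0.40 in the controls. The decoy-like receptor was thus about as abundant as Kdr in the double mutants and less abundant in every control, and the log2 ratio differed by 0.56 between the genotypes. The log2 ratio of Vegfa over Kdr was 0.75, 1.39 and 0.43 in the double mutants, against 0.38, 0.12 and 0.22 in the controls, and differed by 0.62. That of Flt4 over Kdr was -1.99, -1.71 and -2.08 in the double mutants, against -2.42, -2.31 and -2.47 in the controls, and differed by 0.47. In all 3 the groups did not overlap, which gives an exact two-sided permutation p of 0.1, the smallest possible, and 0.2 after adjustment over the 6 ratios. The 3 ratios share Kdr, so they are not separate evidence. The difference between the genotypes in the Vegfa over Kdr log2 ratio was 0.36 without library 5, 0.33 when transcripts counted by their bases, and 0.01 with reference transcripts alone. With reference transcripts alone, the difference in Flt4 over Kdr was 0.16 and that in Flt1 over Kdr was 0.56. The other 3 log2 ratios overlapped between the groups. Vegfb over Vegfa averaged 1.57 in the double mutants and 1.74 in the controls (difference -0.17, exact permutation p = 0.6), Angpt1 over Tek 0.68 in the double mutants and -0.41 in the controls (1.09, exact p = 0.2), and Tie1 over Tek 0.65 in the double mutants and 0.57 in the controls (0.07, exact p = 0.8).

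**Figure D4:**
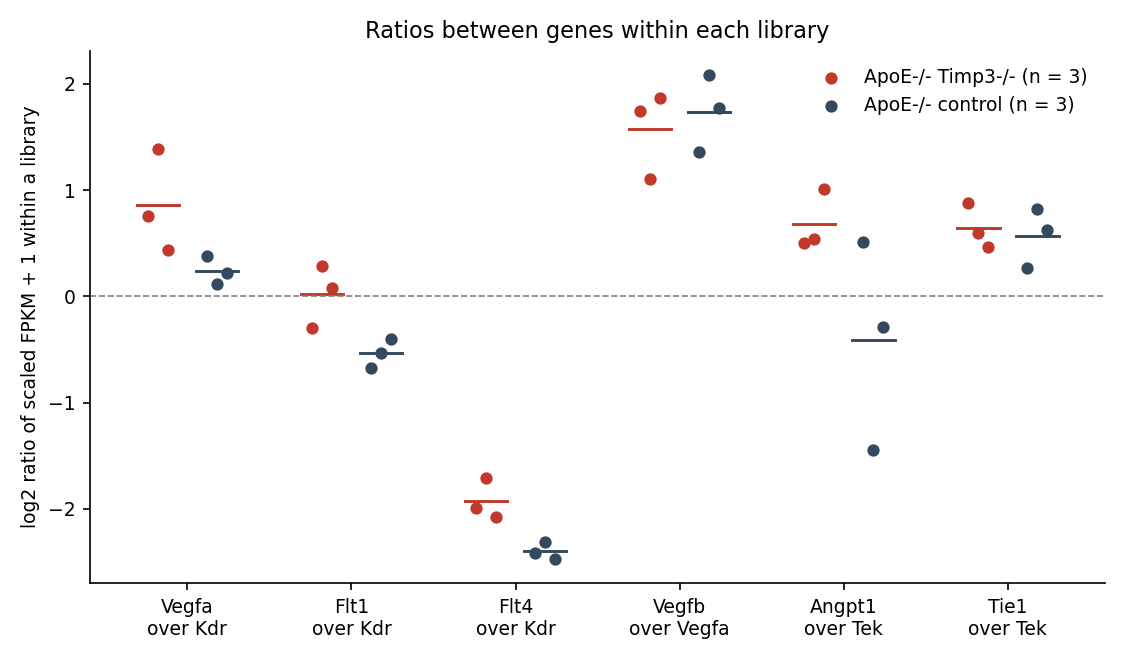
Log2 ratio of scaled FPKM + 1 between pairs of genes within each library; points are libraries, bars are means, the dashed line marks equal levels, and ApoE-/- Timp3-/- hearts stand left of ApoE-/- controls (n = 3 each). Flt1 over Kdr lies between -0.30 and 0.28 in the double mutants and between -0.68 and -0.40 in the controls.

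Other genes of the vessel wall were measured beside these receptors, and their part in the result was not tested. Over all genes tested, 51.2% had a log2 difference below 0, and 5.23% were lower at an unadjusted p under 0.05 by limma. Of 12 endothelial markers, 12 were tested, and none was at 0 in any library. All 12 had a log2 difference below 0, with a median of -0.27, and 3 had an unadjusted p under 0.05 (Erg, Cdh5 and Mmrn2). Their summed scaled level was 240, 190 and 188 FPKM in the double mutants, against 210, 294 and 237 FPKM in the controls, so the sums overlapped. Cdh5, the cadherin of endothelial junctions, had 18.9, 16.1 and 17.6 FPKM in the double mutants, against 28.9, 34.7 and 26.0 FPKM in the controls (log2 difference -0.66 ± 0.14 SE, adjusted p = 0.234 by limma). All 6 pericyte markers had a difference below 0, with a median of -0.41 and 4 at an unadjusted p under 0.05 (Notch3, Cspg4, Pdgfrb and Kcnj8). Their sums were 232 to 284 FPKM in the double mutants and 240 to 381 FPKM in the controls. Most of each sum was Rgs5, at 184 to 247 scaled FPKM in the double mutants and 195 to 318 in the controls. The overlap of the sums therefore describes Rgs5 rather than the list. Fibroblast markers were below 0 in 5 of 5, with a median of -0.35, and sums of 167 to 200 FPKM in the double mutants and 168 to 245 FPKM in the controls. Most of each fibroblast sum was Dcn, at 133 to 164 scaled FPKM in the double mutants and 127 to 184 in the controls. Of 5 smooth muscle markers 3 were tested, 1 below and 2 above 0, with a median of 0.15. Their sums were 51.6 to 68.4 FPKM in the double mutants and 33.5 to 49.8 FPKM in the controls, and most of each sum was Acta2. Myh11 (log2 difference -0.08) and Tagln (0.15) overlapped between the groups, so the higher sums describe Acta2 rather than the list. Acta2, the smooth muscle actin, had 53.5, 33.2 and 34.5 FPKM in the double mutants, against 35.1, 22.0 and 24.5 FPKM in the controls (log2 difference 0.62 ± 0.20 SE, unadjusted p = 0.0153, adjusted p = 0.294 by limma), without overlap after scaling.

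Set against the mean of the endothelial markers within each library, all 10 genes overlapped between the genotypes over the 6 libraries. Kdr differed from the controls by -0.23 on this log2 scale (exact permutation p = 0.4), Tek by -0.13 (p = 0.5, exact), Nrp1 by -0.05 (p = 0.8, exact) and Tie1 by -0.05 (p = 0.6, exact). Relative to the markers Kdr was at -0.08, -0.08 and 0.08 in the double mutants, against 0.42, -0.20 and 0.39 in the controls, and control library 2, which had the highest endothelial markers, lay below the double mutants. Without that library Kdr differed by -0.43 (exact permutation p = 0.1, the smallest for 3 against 2 libraries); without control library 1 it differed by -0.12, and without control library 3 by -0.14. With the marker mean as a covariate in the limma fit, Kdr differed by -0.61 (adjusted p = 0.161), Tek by -0.48 (adjusted p = 0.157), Nrp1 by -0.50 (adjusted p = 0.186) and Tie1 by -0.02 (adjusted p = 0.962). Without the covariate they differed by -0.54, -0.44, -0.36 and -0.37. For Kdr, Tek and Nrp1 the covariate thus moved the difference away from 0, while setting them against the markers moved it towards 0. Control library 2, with the highest markers, had the lowest Kdr of the controls. The slope of the covariate rests on 6 libraries, so these fits do not show levels corrected for endothelial content.

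Of the remaining ligands, Pgf (0.757 to 0.999 FPKM over the 6 libraries), Vegfd (0.650 to 1.13), Angpt2 (0.585 to 0.953) and Angpt4 (0 to 0.087) lay under the filter and were not tested. The modulators of the pathway had 6 of 8 genes tested, 4 below and 2 above 0, with a median log2 difference of -0.13. Vash1, an inhibitor of angiogenesis made by endothelium, had 0.780, 0.779 and 0.974 FPKM in the double mutants, against 1.98, 2.48 and 1.65 FPKM in the controls, without overlap (-0.67 ± 0.15 SE, unadjusted p = 0.00282, adjusted p = 0.238 by limma). Every double mutant lay under 1 FPKM, so Vash1 passed the filter, a mean of at least 1 FPKM, only through the controls. Its p and its lack of overlap are therefore description alone. Plxnd1, a semaphorin receptor of vessels, differed by -0.53 ± 0.24, and Ccbe1, which helps to activate VEGF-C, by 0.42 ± 0.26 (log2, SE; adjusted p = 0.438 and 0.582 by limma).

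Among the intracellular effectors of the receptors 20 of 22 genes were tested, 16 below and 4 above 0, with a median of -0.10. Here 2 were lower at an unadjusted p under 0.05 and none higher, against 5.23% lower and 6.96% higher over all genes tested. Ptk2, the focal adhesion kinase, had 2.92, 2.62 and 3.52 FPKM in the double mutants, against 4.96, 3.97 and 3.64 FPKM in the controls (-0.31 ± 0.12 SE, unadjusted p = 0.0315, adjusted p = 0.365 by limma). Foxo1, a transcription factor that AKT restrains downstream of TEK, differed by -0.31 ± 0.13 and Prkca, a protein kinase C, by -0.37 ± 0.16 (log2, SE; adjusted p = 0.398 and 0.428 by limma).

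The endothelial response genes differed in both directions: 6 of 8 were tested, 4 below and 2 above 0, with a median of -0.36. This median was -0.17 without library 6, -0.22 without control library 2 and -0.54 without library 4. Nr4a1, an immediate early gene that VEGF induces in endothelium and that many other stimuli induce in other cells, had 18.7, 10.7 and 6.32 FPKM in the double mutants, against 1.28, 2.31 and 3.41 FPKM in the controls. Each double mutant was above each control (log2 difference 1.93 ± 0.41 SE, unadjusted p = 0.00199, adjusted p = 0.234 by limma). Apln, which encodes apelin, a peptide of endothelial tip cells, had 0.757, 0.982 and 0.876 FPKM in the double mutants, against 2.08, 3.48 and 2.22 FPKM in the controls, without overlap in the other direction (-0.88 ± 0.20 SE, unadjusted p = 0.00271, adjusted p = 0.238 by limma). Every double mutant lay under 1 FPKM, so Apln too passed the filter, a mean of at least 1 FPKM, only through the controls. Its p and its lack of overlap are likewise description alone. Rcan1, a calcineurin inhibitor that VEGF induces, had 8.38, 7.49 and 7.36 FPKM in the double mutants, against 12.2, 20.5 and 10.1 FPKM in the controls (-0.68 ± 0.24 SE, unadjusted p = 0.0255, adjusted p = 0.346 by limma). None of these lists had a gene past an adjusted p of 0.05.

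The genes whose pattern over the 6 libraries was most like that of Kdr, by the root mean square difference of centred log2 values, were Impdh1 (0.0456), Gm4875 (0.0607) and Rasgrp3 (0.0631). Rasgrp3, an activator of RAS, had 3.39, 2.27 and 2.74 FPKM in the double mutants, against 5.51, 4.44 and 5.00 FPKM in the controls, and Impdh1, an enzyme of guanine nucleotide synthesis, had 4.72, 3.19 and 3.83 FPKM in the double mutants, against 7.17, 5.20 and 6.11 FPKM in the controls. The genes most like Vegfa were Prmt9 (0.0965), Upf3b (0.0970) and 6330403L08Rik (0.1), all weakly expressed at a mean of 2.11, 2.20 and 2.22 FPKM over the 6 libraries.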

How the data were processed

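Messenger RNA of 6 hearts was sequenced, 3 ApoE-/- Timp3-/- and 3 ApoE-/-. Per the labels' protocols, Trizol was used to isolate RNA for Illumina libraries. The authors deposited 1 transcript file per library with FPKM and coverage per transcript, per the file attributes. Per the submitters' processing notes, the tools were TopHat, Bowtie and Cufflinks and the build was NCBIM37; their versions, settings and use of strand were not given in the sources used here. Reads per gene are unknown, so no count test or counting interval is given, and depth was taken from coverage.

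A gene's FPKM was the sum over its reference transcripts and those assembled transcripts of at least 300 nt that shared at least 50% of exonic bases (39174 of 70603). This step affects every member except Kdr and Flt1, which had no assembled FPKM in any library. Vegfa, Nrp1 and Angpt1 are described above. The largest assembled share was 76.0% for Flt4 (library 5) and 55.2% for Vegfc (control library 3). It was 35.9% for Tie1 (library 6), 25.7% for Tek (control library 1) and 24.3% for Vegfb (control library 3). Median-of-ratios factors between 0.896 and 1.17 brought the libraries to a shared scale. The two-sided test was limma 3.58.1 (R 4.3.3, trend on mean level) applied to log2(scaled FPKM + 1) of 11386 genes with a mean of at least 1 FPKM, and p-values were adjusted over them after Benjamini and Hochberg. This scale understates changes of low genes. Single-library FPKM are printed as deposited, and means ± SD after scaling. The labels say only that the controls were littermates, so each p-value rests on the spread between these particular samples, which may be technical.

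The members and lists were chosen with earlier results of these data known. Named were all 10 genes, Timp3, their transcripts with a mean of at least 1 FPKM, the 3 tested genes with the smallest p of each pathway list, every other listed ligand and co-receptor, and the 3 genes nearest in pattern to Kdr and to Vegfa. The endothelial, pericyte and smooth muscle genes named, Mmrn1, Reln and the Flt1 share were chosen after their values were seen. Identifiers and sequences came from GENCODE vM21 transcripts, whose exon lengths equal those in the deposited files at every junction shown, and promoters from RefSeq; gene coordinates are from the files. Alternatives changed the scaling, pseudocount, filter, transcripts summed, library weights and a covariate, or left out each library.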

Additional observations from a re-analysis of the deposited data

How the results depend on the processing

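No paired analysis was possible because the groups share no replicate number. The differences of Kdr, Tek, Tie1 and Vegfc were below 0 under all 16 other settings, though that of Tie1 was -0.017 with the endothelial covariate, against -0.37; Kdr passed under 1 (libraries weighted by their spread, which called 102 genes in all against 5), and no other member passed under any. All values here are log2 differences, double mutants minus controls, unless called counts, and the cause of a change was not tested where none is named. For Vegfa the difference was -0.0029 with quantile normalization, -0.11 with scaling to the same total, -0.54 with reference transcripts only, -0.39 with the strongest reference transcript, -0.14 with the endothelial covariate, -0.21 with transcripts weighted by length, and -0.13 to 0.29 with a library left out. For Flt1 it was -0.051 with no further scaling, -0.012 with quantile normalization, -0.16 with an equal total, -0.14 with the strongest transcript, -0.046 with library weights, -0.22 with the covariate, and -0.066 to 0.14 with a library left out. Vegfb was 0.029 with reference transcripts only and 0.094 with the covariate, Nrp1 0.78 with reference transcripts only and 0.78 with the strongest transcript, Angpt1 -0.45 with the covariate, and Flt4 -0.12 to 0.0063 with a library left out.

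The count of members past the threshold was 1 with library weights, against 0. An equal total moved the median of all genes to -0.16. Members lower at an unadjusted p under 0.05 numbered 5 with an equal total (13.8% of all genes), 5 with library weights (9.88%), 1 with reference transcripts only (4.1%) and 1 with the strongest transcript (3.71%), against 3 (5.23%). Members higher numbered 1 with reference transcripts only (5.97% of all genes), against 0 (6.96%). With a library left out they numbered 0 to 1 (1 without library 1, where 5.74% of all genes were higher). Members without overlap numbered 6 with an equal total (26% of all genes), 1 with the strongest transcript (16.8%), and 3 to 5 with a library left out (5 without library 1, 2 or 4, where 29.4%, 30.7% and 33.9% of all genes did not overlap), against 3 (19.2%). The median of the other ligands and co-receptors, which is Nrp2 alone under the filter, was -0.54 with no further scaling, -0.64 with an equal total, -0.52 with a pseudocount of 0.1, -0.67 with reference transcripts only and -0.083 with the strongest transcript; with no filter on low values, where the weak ligands enter, it was 0.015. The modulators' median was -0.29 with an equal total, -0.55 with reference transcripts only and -0.48 with the strongest transcript. The effectors' median was -0.17 with no further scaling, -0.15 with quantile normalization, -0.27 with an equal total, -0.044 with reference transcripts only, -0.14 with the strongest transcript, and -0.12 to -0.052 with a library left out.

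Vegfb over Vegfa was 0.57 with reference transcripts only, 0.18 with transcripts weighted by length, and -0.36 to 0.066 with a library left out. Tie1 over Tek was -0.24 with reference transcripts only and -0.077 to 0.20 with a library left out. Relative to the endothelial markers and with reference transcripts only, Vegfa was -0.21, Flt4 -0.059, Nrp1 1.11 and Tek 0.0061; Vegfc was -0.022 with a pseudocount of 0.1. With a library left out, Vegfc ran from -0.17 to 0.22, Nrp1 from -0.25 to 0.071 and Tie1 from -0.12 to 0.016. With a library left out, the transcript of Nrp1 ran from -0.55 to 1.69, that of Vegfc from -0.25 to 0.021 and the short form of Vegfb from -0.12 to 0.064. The weighting by length was chosen after the data were seen.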
